A study of Mus musculus with 24 samples.

Results

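Stra8 and Zfp42 are the genes described here, each read by 1 mRNA probe (ASMM10P034281 and ASMM10P006905) on 24 mouse arrays. They are 2 of the 250 mRNA genes (260 probes) that the study names among its testis-specific mRNAs present in a germ cell-related line, and every one of the 60804 transcript probes of the array was used for scaling and testing. The tissues were testis, brain, heart, kidney and liver of male ICR mice of 8 weeks, with 3 arrays each, and the F9, GC-1 and GC-2 lines of mouse also had 3 each, with no allele or agent named for any group. F9 is an embryonal carcinoma line, the stem cell of a testicular tumour, grown on gelatin in medium from which retinoic acid was left out. GC-1 and GC-2 are lines made from germ cells of the testis, GC-1 the less advanced and GC-2 placed at the spermatocyte stage. Each line is 1 cell line in culture, so its 3 arrays describe that line and not germ cells at large, and each testis array reads RNA of the whole organ.

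Stra8 encodes a protein that germ cells switch on when retinoic acid reaches them and that is needed for the entry into meiosis. In the adult testis it is found in differentiating spermatogonia and in early spermatocytes. Zfp42, also called Rex1, encodes a zinc finger protein used as a marker of undifferentiated embryonic stem and embryonal carcinoma cells, where the pluripotency factor Oct4 is known to drive it, and its transcript falls when such cells differentiate.

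The bases before each gene's start are shown because both genes are known for different regulators, retinoic acid receptors for Stra8 and octamer-binding factors for Zfp42. They are RefSeq sequence on GRCm38.p6, cover the 250 bases before the transcript start that the RefSeq promoter table uses for each gene, and are written 5′ to 3′ on the strand of the gene. Capitals mark AGGTCA, the half-site that nuclear receptors bind, and ATTTGCAT, the octamer, each searched on both strands, with no overlap between the matches.
Stra8, chr6:34920698-34920947, plus strand: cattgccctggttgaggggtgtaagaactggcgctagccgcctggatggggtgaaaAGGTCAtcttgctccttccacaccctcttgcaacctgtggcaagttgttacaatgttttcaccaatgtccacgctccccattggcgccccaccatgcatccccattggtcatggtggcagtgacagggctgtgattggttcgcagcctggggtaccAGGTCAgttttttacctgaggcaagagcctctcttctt
Zfp42, chr8:43307010-43307259, minus strand: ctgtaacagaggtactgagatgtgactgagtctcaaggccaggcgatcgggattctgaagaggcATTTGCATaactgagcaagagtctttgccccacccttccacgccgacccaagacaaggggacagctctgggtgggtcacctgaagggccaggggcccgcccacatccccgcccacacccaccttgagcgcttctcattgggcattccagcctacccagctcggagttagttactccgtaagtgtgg
The Stra8 window held 2 half-sites, at 194 to 189 and 38 to 33 bases before the start, and no octamer. Of 32851 mouse promoter windows of this length, 14.0% held at least 1 half-site and 1.36% held 2 or more. The Zfp42 window held 1 octamer, at 186 to 179 bases before the start, which 1.60% of the windows did, and no half-site. The Stra8 window had 5 CpG dinucleotides and 54.8% G and C, and the Zfp42 window had 9 and 58.4%, beside a median of 6 CpG over all windows. From the list of 17 pluripotency genes read further below, the windows of 4 were counted, and only that of Zfp42 held an octamer. From the list of 28 genes of meiosis and the germline, 13 were counted, and Stra8 and Nr6a1 held a half-site. The remaining genes of both lists were not counted, so these numbers do not describe the lists as a whole. A match of letters is a description of the sequence and not a measured binding site. In the annotation of that build, Stra8 spans 34920163 to 34939344 on chromosome 6 and Zfp42 spans 43295067 to 43307009 on chromosome 8. The Stra8 span begins before the window shown, which therefore lies inside it, and other starts of Stra8 were not analysed here. A pseudogene of Zfp42, Zfp42-ps1, lies on chromosome 15 from 93678603 to 93680033. The sequence of the probe was not used here, so whether it also reads the pseudogene is not known.

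Both genes were detected in testis and in F9 and in no other group. An array's processed signal is the intensity of a probe after background subtraction, and detection here means a signal flagged well above background. Stra8 had intensities of 394, 304 and 406 on the 3 testis arrays and 325, 143 and 144 on the 3 F9 arrays. F9 replicate 1 therefore lay close to the testis arrays, and the other F9 arrays lay below all of them before any scaling. Zfp42 had intensities of 117, 123 and 97.7 in testis and 1965, 1976 and 2055 in F9. Here every F9 array lay far above every testis array, and the F9 arrays were close to each other. On the other 18 arrays Stra8 read from 2.88 to 6.25, with a median of 3.33, and Zfp42 from 2.76 to 9.0, with a median of 3.42. Neither probe was well above background on any of these 18 arrays, and neither was saturated on any array. The highest of these values, for both genes, came from liver replicate 1, whose negative control probes were also the brightest of the series. Without that array the highest values were 4.09 for Stra8 and 8.67 for Zfp42, the latter on GC-1 replicate 1. Under the weaker flag for a positive and significant signal, Stra8 passed on 1 and Zfp42 on 3 of the 18 arrays.

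**Figure D1:**
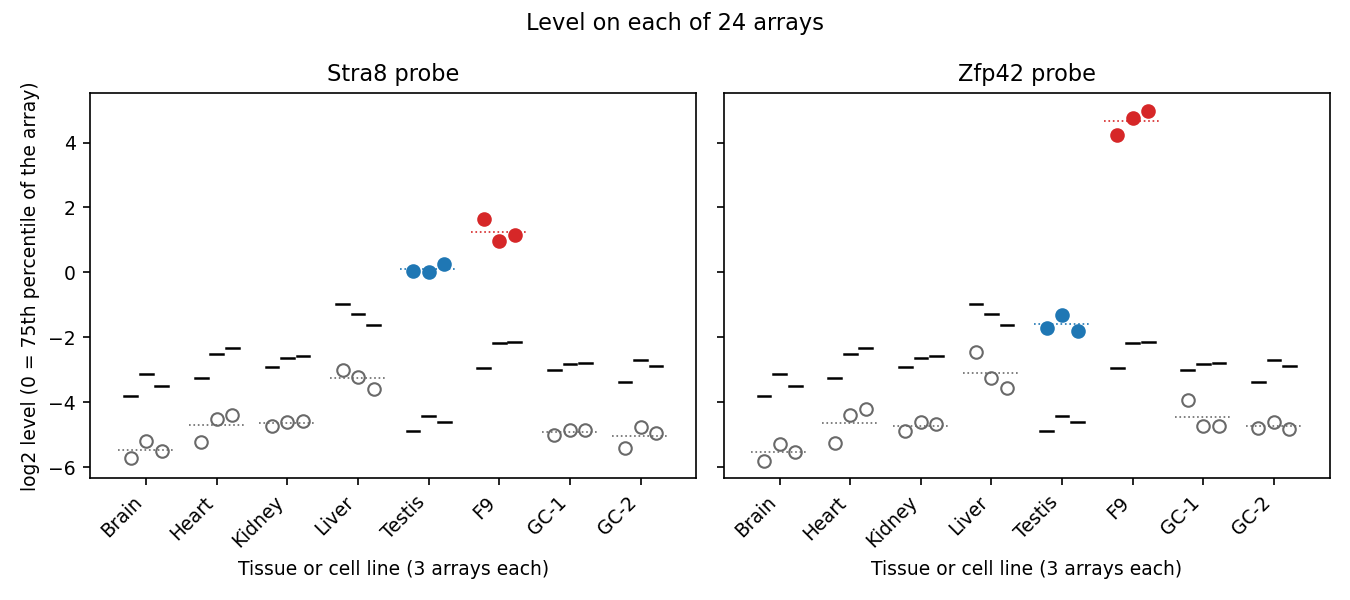
Level of the Stra8 probe (left) and the Zfp42 probe (right) on each of 24 arrays, as log2 intensity with 0 at the 75th percentile of the array. Filled points are well above background, open points are not, black ticks mark each array's dimmest detected signal, and dotted lines are group means. Testis and F9 hold all filled points. The gap between testis and F9 depends on the scaling: for Stra8, F9 is higher here, and no difference is called with median scaling.

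To compare arrays, the log2 intensity was set against the 75th percentile of each array, so that a level of 0 equals that percentile. On this scale Stra8 was at 0.10 ± 0.14 in testis and 1.25 ± 0.34 in F9, and its measured means in the other groups, all below detection, ran from -5.48 in brain to -3.27 in liver (SD, n = 3). Zfp42 was at -1.61 ± 0.26 in testis and 4.65 ± 0.39 in F9, and from -5.54 in brain to -3.10 in liver elsewhere (SD, n = 3). Values of a probe below detection have no order among themselves, so brain, heart, kidney, liver, GC-1 and GC-2 are not ranked. The study's list was built from testis against the other tissues and from presence in a line, so these levels are a description and carry no test. In whole testis, fewer cells of a type and less RNA per cell cannot be told apart.

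Because the other groups gave only upper limits, folds over them are lower bounds, set against the lowest signal well above background on each array. They are given with the 75th percentile and, second, with each array scaled to the median of its probes well above background. The study's own list carries that median scaling to within 0.205% on the arrays of testis, F9, GC-1 and GC-2. For brain, heart, kidney and liver this was not compared. Zfp42 in F9 was at least 61.5-fold higher than in liver and at least 281-fold higher than in brain, the ends of the range over the 6 groups, and at least 111-fold to 157-fold with median scaling. Stra8 in F9 was at least 5.81-fold higher than in liver and at least 26.6-fold higher than in brain, and at least 10.4-fold to 14.8-fold with median scaling. For testis, the Stra8 bounds ran from at least 2.62-fold over liver to at least 12-fold over brain, and from at least 13.1-fold to 18.5-fold with median scaling. Zfp42 in testis gave at least 2.13-fold to 3.67-fold over brain, heart, kidney, GC-1 and GC-2 and no bound over liver, and at least 4.02-fold to 5.70-fold over all 6 groups with median scaling. Only Zfp42 in testis failed to pass the detection limit of a group, that of liver with the 75th percentile, where its mean of -1.61 lay below a limit of -1.29.

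F9 was then set against testis, a comparison that asks whether the line carries these transcripts at the level of the organ. Zfp42 was higher in F9 than in testis by 6.26 on the log2 scale (SE 0.28, limma adjusted p = 2e-09), and by 4.78 (SE 0.16, adjusted p = 7.79e-10) with median scaling. It was higher in F9 under each of the 25 alternatives run, with differences from 4.67 to 6.47. Stra8 had no settled direction: it was higher in F9 by 1.15 (SE 0.24, adjusted p = 0.000737) with the 75th percentile, and its difference was -0.33 (SE 0.28, adjusted p = 0.319, 95% interval -0.95 to 0.30) with median scaling. With the 75th percentile 63.8% of all probes were called higher in F9 and 18.7% lower, and with median scaling 37.6% and 32.0%, so a call of Stra8 alone says little about this gene.

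The scalings treat the number of detected transcripts differently. From 34999 to 37393 probes were well above background on the testis arrays and from 23525 to 27537 on the F9 arrays, and the 75th percentile stood at intensities of 305 to 384 in testis and 65.5 to 105 in F9. It moved the median difference of all 60804 probes to 1.63, and that of the 20932 probes detected on all 6 arrays to 1.497, against 0.26 and 0.02 with median scaling. Another scaling, on the 75th percentile of the 13551 probes detected on all 24 arrays, gave -0.44 for Stra8 (adjusted p = 0.16) and 4.67 for Zfp42. Quantile normalization, which is not a single offset per array, gave 1.13 for Stra8 (limma adjusted p = 0.000127) and 6.05 for Zfp42. Its median difference of all probes was 0.26, so a positive call of Stra8 was not limited to the scaling with the large shift. Relative to the median of the 20932 probes, which a single offset per array does not change, Stra8 was at -0.35 and exceeded 41.4% of them, and Zfp42 was at 4.76 and exceeded 99.3% of them. Stra8 thus sat near the middle of the transcripts shared by F9 and testis, and Zfp42 near their top.

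**Figure D2:**
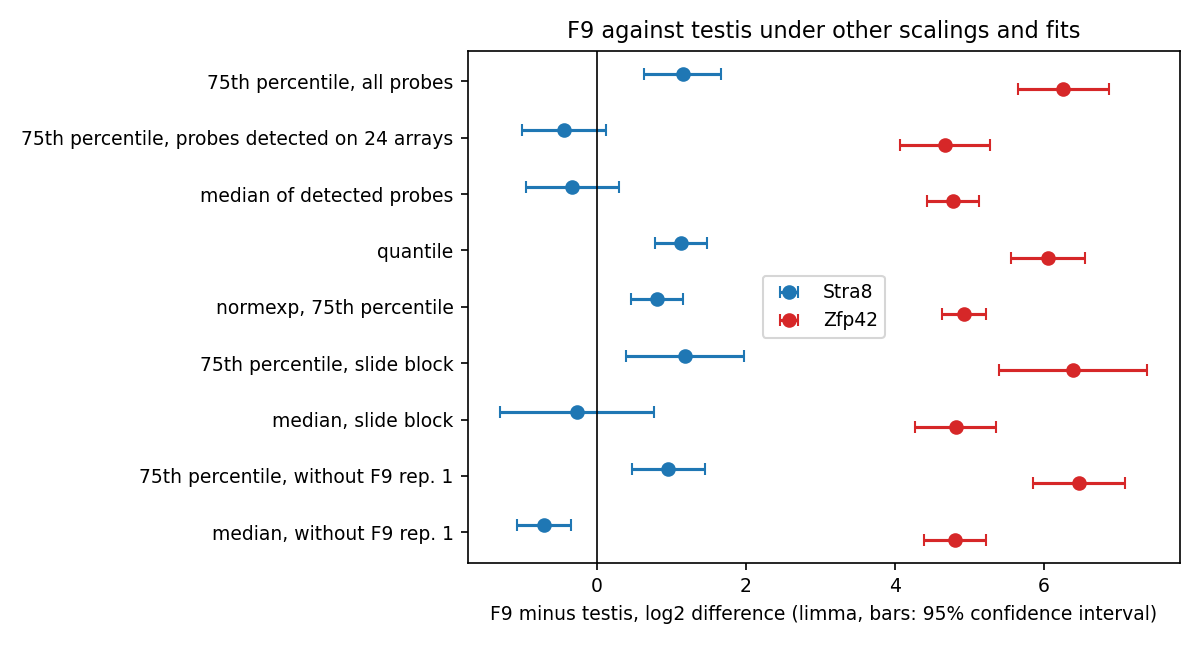
Log2 difference of F9 minus testis (x axis) for Stra8 (blue) and Zfp42 (red) under 9 scalings and fits, with bars for the 95% confidence interval from limma. Zfp42 stays between 4.67 and 6.47, and Stra8 moves from 1.15 with the 75th percentile of all probes to -0.33 with median scaling.

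One F9 array carried weight for Stra8. With median scaling its level in F9 was 0.48 ± 0.67 and in testis 0.80 ± 0.20 (SD, n = 3), and the groups overlapped. The difference within replicate number 1, whose arrays of all groups share slide 1, was 0.35, and it was -0.51 and -0.82 for numbers 2 and 3, whose F9 and testis arrays lie on different slides. Without F9 replicate 1 and with median scaling, Stra8 was called lower in F9, by 0.71 (SE 0.16, limma adjusted p = 0.00305). With the 75th percentile and without that array it was still called higher. With slide as a block, the differences were 1.18 (adjusted p = 0.0133) with the 75th percentile and -0.26 (adjusted p = 0.627) with median scaling. Zfp42 was higher in F9 on slide 1 by 5.94, and by 4.70 with median scaling.

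The 2 genes can be set against each other on each array, which needs no scaling between arrays. The log2 intensity of Zfp42 minus that of Stra8 was 2.59, 3.79 and 3.83 on the F9 arrays and -1.75, -1.30 and -2.06 on the testis arrays. The groups did not overlap. The change of Zfp42 from testis to F9 exceeded that of Stra8 by 5.11 on the log2 scale, or 34.5-fold, with an exact two-sided permutation p of 0.1, the smallest that 3 against 3 arrays allow. Within slide 1 it was 4.35. The value shows unequal change of the 2 probes and does not say that either stayed level.

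Against GC-1 and GC-2, which share the F9 and testis arrays as partners, both genes were called higher in F9 and in testis. The study's list, made on these arrays, gives both as testis-specific mRNAs present in F9, and not for GC-1 or GC-2. These contrasts therefore restate that listing, and their adjusted p-values are no independent evidence. Stra8 was higher in F9 than in GC-1 by 6.16 (SE 0.24, limma adjusted p = 4.89e-09) and than in GC-2 by 6.29 (adjusted p = 4.11e-09). Zfp42 was higher in F9 than in GC-1 by 9.11 (SE 0.28, adjusted p = 8.06e-10) and than in GC-2 by 9.40 (adjusted p = 6.87e-10). Over all probes, 14.0% were called higher and 11.3% lower in F9 than in GC-1, and 14.6% higher and 10.7% lower than in GC-2. With median scaling this balance turned, to 8.19% higher and 14.2% lower against GC-1 and 8.12% and 13.9% against GC-2, while both genes were still called higher in F9. Testis exceeded GC-1 by 5.01 for Stra8 (adjusted p = 3.06e-09) and by 2.85 for Zfp42 (adjusted p = 2.13e-06), and GC-2 by 5.14 and 3.14. Of all probes, 19.5% were called higher and 62.4% lower in testis than in GC-1, and 20.0% and 61.3% than in GC-2. With median scaling these were 28.8% and 39.4% against GC-1, and 29.2% and 37.0% against GC-2. With a normexp background correction, the Zfp42 differences of testis over GC-1 and GC-2 shrank to 0.29 each and missed the threshold (adjusted p = 0.0556 and 0.0554). Since both genes were below detection in GC-1 and GC-2, these fitted differences measure a distance to background and are no estimate of a fold. Leaving out any 1 array of the groups compared changed none of these calls.

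The pattern of detection on every testis and F9 array and on no other array was rare. It was shown by 110 of the 60804 probes (0.181%) and by 22 of the 260 named mRNA probes. The named probes came from a list of testis-specific mRNAs present in a line, with Stra8 and Zfp42 listed for F9 alone. That both genes show the pattern, and the 22 of 260, therefore largely follow from that list and are no independent evidence. Ordered by F9 minus testis, an order that a single offset per array does not change, Zfp42 came first of the 22 and Stra8 sixth. The probes next below Zfp42 were of Nup62cl (3.11, or 1.64 with median scaling) and Tex19.1, a germ cell and placental gene (2.95, or 1.47). Among the 187 named probes detected in F9, Zfp42 ranked 2 and Stra8 49. Of these, 78 had a higher mean in F9 than in testis, and 44 did with median scaling.

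**Figure D3:**
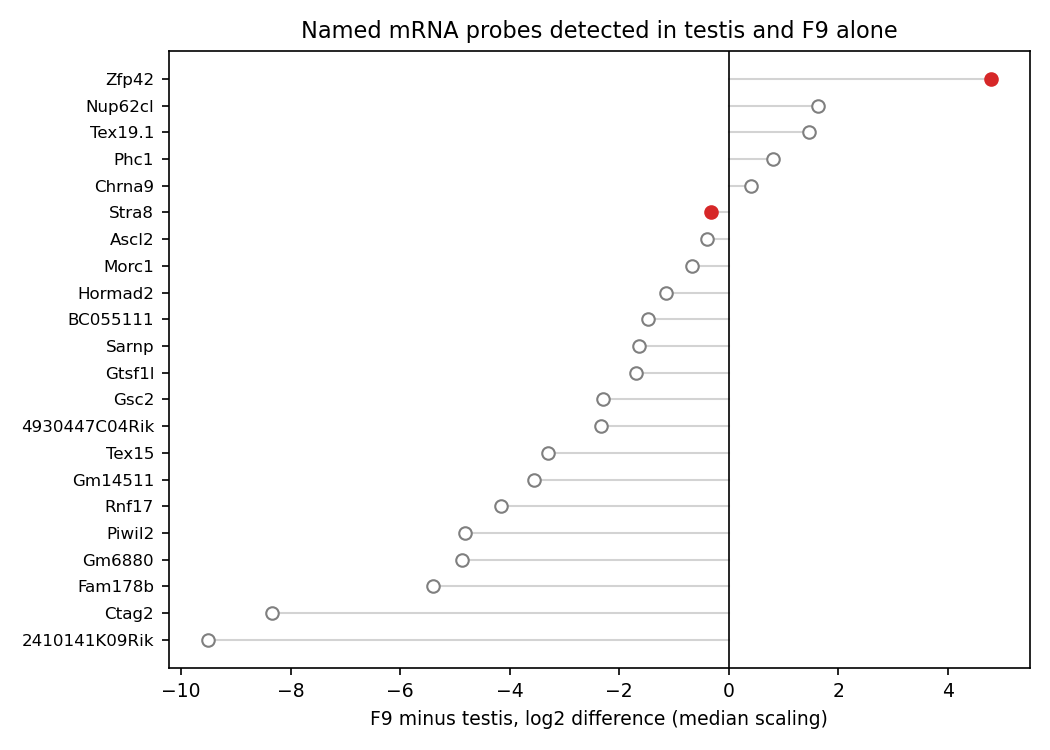
Log2 difference of F9 minus testis with median scaling (x axis) for the 22 named mRNA probes detected on all testis and F9 arrays and on no other array. Zfp42 (4.78) stands apart at the top and Stra8 (-0.33) is sixth. The 75th percentile moves every point by the same 1.48 to the right, which turns Stra8 to 1.15.

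The genes most like each member were taken as the named probes with the highest Pearson r over the 8 group means, a description across groups that share 6 groups at or near background. For Stra8 these were Hormad2, a protein of unsynapsed meiotic chromosome axes (r = 0.996), Chrna9, a nicotinic acetylcholine receptor subunit (0.991), Nup62cl (0.990), Gtsf1l (0.980) and BC055111 (0.978). For Zfp42 they were Zscan10, a zinc finger factor of embryonic stem cells (0.978), Trim71, an RNA-binding protein of early development (0.973), Tex19.1 (0.966), Nup62cl (0.960) and Chrna9 (0.955). The r between Stra8 and Zfp42 themselves was 0.917. Over all probes, 157 had an r of at least 0.9 with Stra8 and 145 with Zfp42.

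The genes around Zfp42 were read from a list of 17 pluripotency genes, of which the names given identify 5, on 7 probes since Phc1 has 3. These names come from a list the study made on the same arrays, so their direction is no independent evidence. All 7 probes were called higher in F9 than in testis with the 75th percentile, with a list median of 2.30, and 4 of 7 with median scaling, with a median of 0.82, beside 63.8% and 37.6% of all probes called higher. None was called lower under either. The highest were Trim71 (7.01, or 5.53 with median scaling) and Zfp42. The lowest were Fbxo15, an F-box protein of stem cells (1.59, adjusted p = 0.000587, or 0.11, adjusted p = 0.705), and a probe of Phc1, a Polycomb protein (1.96, or 0.48). Zfp42 was thus above the median of its list on both scales. Against GC-1 and GC-2 all 7 probes were called higher in F9 with both scalings. The shares of all probes called higher were 14.0% and 14.6%, and 8.19% and 8.12% with median scaling. All 7 were on the study's list for F9 and not for GC-1 or GC-2, so this result restates that list. The summed intensity of the 4 identified markers of pluripotent cells, Zfp42 among them, was 9754 to 13564 in F9 and 1391 to 2343 in testis. It was 17.3 to 29.8 in GC-1 and 26.3 to 32.7 in GC-2, where none was detected on all 3 arrays.

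The genes around Stra8 were read from 28 genes of meiosis and the germline, of which 17 were identified on 18 probes. Called higher in F9 than in testis were 5 probes and lower 8 with the 75th percentile, and 2 and 15 with median scaling. Over all probes the shares called higher and lower were 63.8% and 18.7%, and 37.6% and 32.0% with median scaling. The list's medians were -0.67 and -2.14, beside medians of 1.63 and 0.26 over all probes. All 18 probes were named from the study's list of testis-specific mRNAs, which was picked for testis signal on these arrays. All probes are thus an unlike comparator, and the direction against testis is no independent evidence. Of the 187 named probes detected in F9, 78 had a higher mean in F9 than in testis, and 44 did with median scaling. The highest were Tex19.1 and Trip13, an ATPase that acts on meiotic chromosome axes and the spindle checkpoint (2.79, or 1.31). The lowest were Gtsf1, a partner of PIWI proteins (-8.17, or -9.65), and Piwil2, a PIWI protein of the germline (-3.33, or -4.81). Stra8, at 1.15 or -0.33, ranked 3 of the 18 probes in this order, although the sign of its own difference depends on the scaling and -0.33 was not called. Against GC-1, 17 of the 18 were called higher in F9, and against GC-2, 16 of 18, with both scalings. The shares of all probes called higher were 14.0% and 14.6%, and 8.19% and 8.12% with median scaling. Most of the 18 probes were on the study's list for F9 alone, so these counts largely restate that list. A list of 16 genes of retinoic acid signalling could not be read, since none of them is among the names used here.

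**Figure D4:**
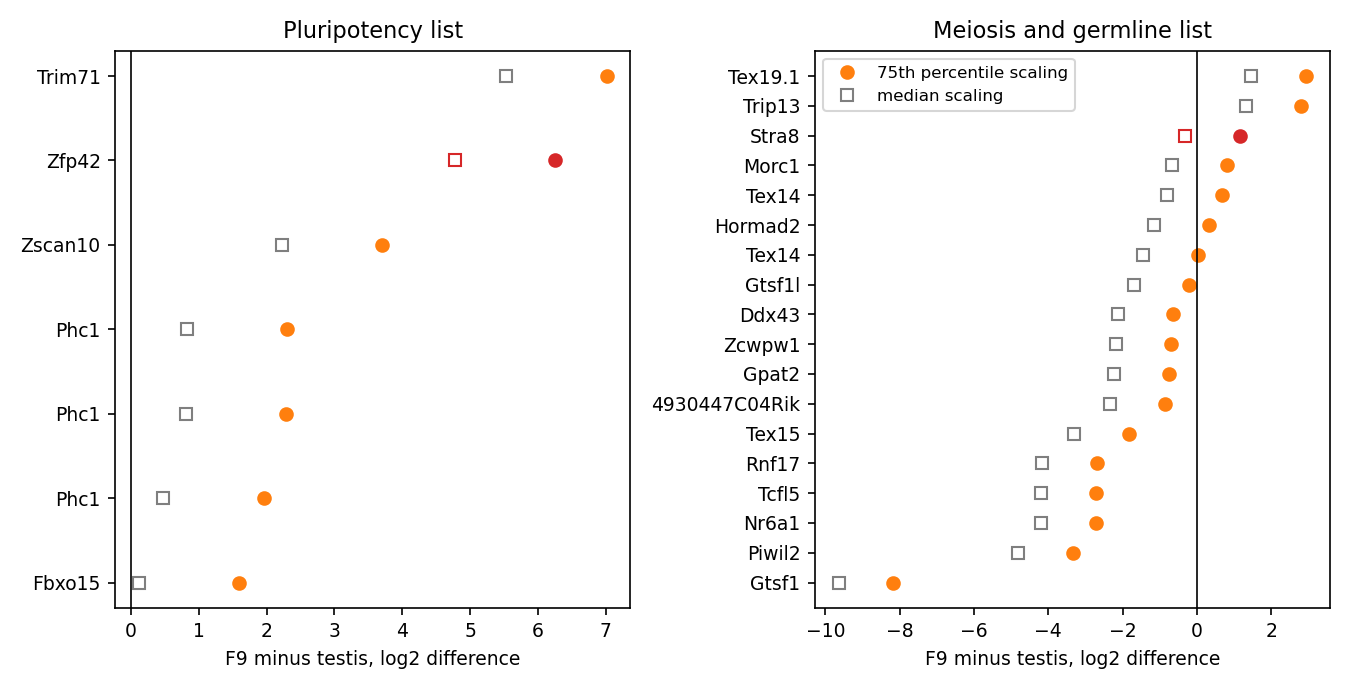
Log2 difference of F9 minus testis for each identified probe of the pluripotency list (left) and of the meiosis and germline list (right), with 75th percentile scaling (filled circles) and median scaling (open squares), and Stra8 and Zfp42 in red. Zfp42 is second of 7 on the left at 6.26 or 4.78, and Stra8 is number 3 of 18 on the right at 1.15 or -0.33, on either side of 0.

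F9 is a dividing line and adult testis holds many cells that no longer divide, so 27 mitosis genes, picked from the named probes, were read beside them. Called higher in F9 than in testis were 20 and lower 1 with the 75th percentile, and 10 and 8 with median scaling, with medians of 1.86 and 0.38. The highest were Ccna2, a cyclin of S phase and mitosis (5.69, or 4.22), and Melk, a kinase of dividing cells (4.83, or 3.35). The lowest were the centromere proteins Cenpk (-2.05, or -3.52) and Cenpn (-0.34, or -1.81). Over all probes, 63.8% were called higher and 18.7% lower with the 75th percentile, and 37.6% and 32.0% with median scaling, so the median-scaled counts lay near the shares over all probes. The 27 genes were named from the study's list of testis-specific mRNAs too, so their direction against testis is no independent evidence. Against GC-1, 7 of the 27 were called higher in F9 and 2 lower, and against GC-2, 6 and 2. With median scaling the balance turned, to 4 higher and 5 lower against GC-1 and to 1 and 5 against GC-2. The shares of all probes were 14.0% higher and 11.3% lower against GC-1, and 14.6% and 10.7% against GC-2. With median scaling these shares were 8.19% and 14.2%, and 8.12% and 13.9%. The part of growth in the 2 members' differences was not tested.

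Markers of other cells of the testis were read the same way. The 4 identified of 8 spermatid markers (Acr, Actl7a, Oxct2b and Spata9) summed to intensities of 281963 to 326949 in testis and 122 to 182 in F9. All but Spata9 were still well above background on the 3 F9 arrays. The 4 identified of 6 spermatocyte markers (Hormad2, 4930447C04Rik, Tex15 and Zcwpw1) summed to 1024 to 1447 in testis and 153 to 293 in F9, and all 4 were detected in F9. They are also members of the meiosis and germline list. A marker could be identified only from the study's list of testis-specific mRNAs present in a line. Every spermatid and spermatocyte marker detected in F9 was listed there for F9, and Spata9 for GC-2 alone. Their detection in F9 thus restates that list. Of 5 Leydig cell markers only Star, the cholesterol transporter of steroid synthesis, was identified, at 1753 to 2218 in testis and 9.75 to 31.9 in F9. Of 7 spermatogonium markers only Stra8 was identified, and no marker of Sertoli cells, fibroblasts, brain, heart, liver or kidney, so the labels of the other tissues were not checked. How much the mix of cells in testis bears on the difference from F9 was not tested.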

How the data were processed

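Total RNA of 24 samples was labeled with Cy3 and hybridized, 1 sample per Arraystar mouse lncRNA array. The authors deposited 1 Feature Extraction 11.5.1.1 file per array, with a processed intensity and flags for each of 62243 spots, and a matrix of the same intensity values for 60804 transcript probes, which differed from the files by at most 0.000228 (relative). Neither was normalized between arrays. Per the methods, normalization used GeneSpring GX and groups were compared with Student's t-test. The labels name Trizol for extraction and the methods a column kit. Probe names came from the study's list of testis-specific transcripts in the lines, whose values were used only to read its array factors.

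The log2 processed signal minus each array's 75th percentile was fitted with limma 3.58.1 (R 4.3.3, lmFit and eBayes) on the 12 arrays of testis, F9, GC-1 and GC-2, with Benjamini-Hochberg adjustment over 60804 probes and calls at an adjusted p of 0.05 or less. No probe was filtered. Other steps were run in Python 3.11.15 (pandas 2.3.3, numpy 2.4.6, matplotlib 3.10.9 and scipy 1.17.1). The files hold no mean signal, so normexp (offset 50) used median signals. Median scaling set signals under 5 to 5, as the study's list does. Stra8 and Zfp42 were always named, and of each list the 2 highest and 2 lowest by F9 minus testis, plus the 5 probes most like each gene. The members and lists were chosen with earlier results of these data known. The methods call the arrays biological triplicates. Where cultures were not separate, p-values measure only the spread between these samples. Their number, 3 per group, limits the precision. In simulated data for F9 minus testis on 60804 probes, 36% of 100 probes changed by 1.5 and 91% of 100 changed by 3.5 were recovered, with 10 false calls. All other probes were left unchanged there, and no slide effect or array offset was added. In the real comparison most probes were called, so these figures do not give its recovery or false calls.

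Replicate numbers come from the labels. Slide 1 holds replicate 1 of every group. Slide 3 holds the other replicates of heart and the lines, and slide 2 those of testis, liver, kidney and brain. Deviations from group means correlated between same-numbered samples by 0.072 to 0.541 (median 0.177, over 0.1 in 16 of 18 pairs, 19294 probes), and between different numbers by a median of -0.166. The pairs of F9 with testis gave 0.155, 0.175 and 0.105, all over 0.1, so the numbers may pair the samples in this comparison. Of 36 pairs with different numbers 9 were also over 0.1, among them testis replicate 3 with F9 replicate 2 (0.128). The main fit used no pairing, and the replicate block was run as an alternative.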

Additional observations from a re-analysis of the deposited data

How the results depend on the processing

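Zfp42 kept its direction and call in F9 minus testis under all 25 alternatives. Stra8 kept 1.15 within 0.81 to 1.29 under 14 alternatives. Among them were quantile normalization (1.13, limma adjusted p = 0.000127) and the replicate block (1.15, adjusted p = 0.00143). Its sign turned under 11 that scale each array by another single offset: -0.44 over probes detected on all 24 arrays, -0.33 with median scaling, -0.33 with the array factors of the study's list, and, chosen after seeing the data, median scaling with the slide block (-0.26), with the replicate block (-0.33) and without single F9 or testis arrays (-0.71, -0.44, -0.28, -0.26, -0.15 and -0.12). Of these 11, only the fit without F9 replicate 1 (-0.71) was called. Under normexp, Zfp42 in testis fell to 0.29 over GC-1 (adjusted p = 0.0556) and 0.29 over GC-2 (adjusted p = 0.0554). Under the 3 rescalings, the counts called in F9 minus testis became 3, 4 and 4 higher for the pluripotency list, 2 in each higher and 14, 15 and 15 lower for the meiosis and germline list, and 8, 10 and 10 higher and 8 in each lower for the mitosis list, where quantile normalization and normexp gave 2 lower each. These rescalings move each array by 1 offset, and the shift they give all probes is printed with the results. The replicate block changed no call, and no list count by over 1.5 times. The methods' t-test called 47801 probes in F9 minus testis at an unadjusted p of 0.05 and 46480 after Benjamini-Hochberg adjustment, with both genes among the latter. Signal over background limits both genes in the 6 groups without detection.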
